A study of Mus musculus with 8 samples.

Results

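The liver of leptin-null mice with an intact SHP gene (OB-/-) was compared with the liver of wild-type mice, gene by gene. The rule took the 2 OB-/- arrays and the 2 wild-type arrays, which are 4 of the 8 arrays of the series, and all probe sets other than controls. That gave 22626 probe sets, of which 1 per gene was used for 12393 genes. OB-/- stands for a knockout of the leptin gene Lep. The gene Nr0b2 encodes SHP, the small heterodimer partner, an orphan receptor that represses other nuclear receptors, and the remaining arrays came from SHP-/- mice and from OB-/-/SHP-/- double knockouts. All mice had the strain background C57BL and ate standard rodent chow, so neither a special diet nor a drug separates the groups. Age, sex and whether RNA was pooled are not given in the labels. The comparison asks which liver genes differ when leptin is absent and SHP is present.

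Leptin is a hormone of fat cells that restrains feeding through receptors in the brain, and its loss leads to obesity, high insulin and fat storage in the liver. Leptin-null mice also release little growth hormone. In male mice growth hormone comes in pulses that keep 1 set of liver genes high and another low, and in females its near-constant release does the reverse, so these sets are known as male-biased and female-biased liver genes.

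The tissue label was checked first. Albumin (Alb) and transthyretin (Ttr), both made by hepatocytes, were between 13.65 and 14.07 on the log2 scale on all 4 arrays. Of 8 measured hepatocyte markers 3 were called lower, or 1 without OB-/- replicate 2 or wild-type replicate 1, and the summed level of the 8 was 16.02 and 15.92 in OB-/- and 16.17 and 16.09 in wild-type. Arrays of the same genotype correlated across genes at r = 0.995 for OB-/- and also for wild-type, and OB-/- arrays correlated with wild-type arrays at 0.974 to 0.975. The array of OB-/- replicate 1 stood apart. Xist, the RNA of the inactive X chromosome, was 7.41 in OB-/- replicate 1, against 4.70 in OB-/- replicate 2 and 4.55 and 4.41 in wild-type. The Y-linked gene Eif2s3y was 6.99 and 6.79 in OB-/- and 7.09 and 6.88 in wild-type. Results that concern sex-biased genes are therefore also given without OB-/- replicate 1. A sign of RNA quality, the excess of the 3' over the 5' control probe set, also moved with genotype. For Gapdh it was -0.07 and -0.01 in OB-/- and 0.79 and 1.00 in wild-type, and for Actb 0.77 and 0.89 against 1.89 and 1.87. This offset cannot be told apart from genotype in these 4 arrays, and its part in the results was not tested. It was smaller without SHP, with Gapdh at 0.03 and 0.11 in OB-/-/SHP-/- and 0.19 and 0.35 in SHP-/-. Actb was 0.93 and 0.79 against 1.25 and 1.35 there. A difference between leptin loss with and without SHP therefore cannot be told apart from this offset either.

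Between OB-/- and wild-type liver, 2100 of the 12393 genes (16.9%) differed at a Benjamini-Hochberg adjusted p below 0.05 by limma, which gave all adjusted p-values here. Whether replicate arrays came from separate animals is not stated, so p-values measure only the spread between these arrays, which may be technical. Of the called genes, 940 were higher in OB-/- (7.58% of all genes) and 1160 lower (9.36%). Most changes were small: 265 of the called genes rose and 245 fell by more than 2-fold, 53 and 38 by more than 4-fold, and 23 and 13 by more than 8-fold. The median difference over all genes was -0.01 on the log2 scale, and the median standard error (SE) of a difference was 0.15. Calls depended on signal, with 2.14% of genes called among the 2479 genes of lowest mean level and 25.3% among the 2479 of highest. At every 1 of the 2100 called genes the arrays of the groups did not overlap, so non-overlap of a called gene named below adds no support. The arrays also did not overlap at 57.5% of all genes, with OB-/- above at 27.5% and below at 30.0%. With 1 of the 4 compared arrays left out the count fell to between 956 (without wild-type replicate 1) and 1165 (without wild-type replicate 2), with 1061 without OB-/- replicate 1 and 993 without OB-/- replicate 2, while it was 2157 to 2234 without 1 of the SHP-null arrays. Of the 2100 genes, 663 (31.6%) kept their call with any 1 of the 8 arrays left out. Against a minimum change of 2-fold, 102 genes passed. The gene lists counted in this report were chosen with earlier results of these data known. Their counts and medians therefore describe the lists and are no independent support for a theme. Each count is to be read beside the 7.58% of all genes called higher and the 9.36% called lower.

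**Figure D1:**
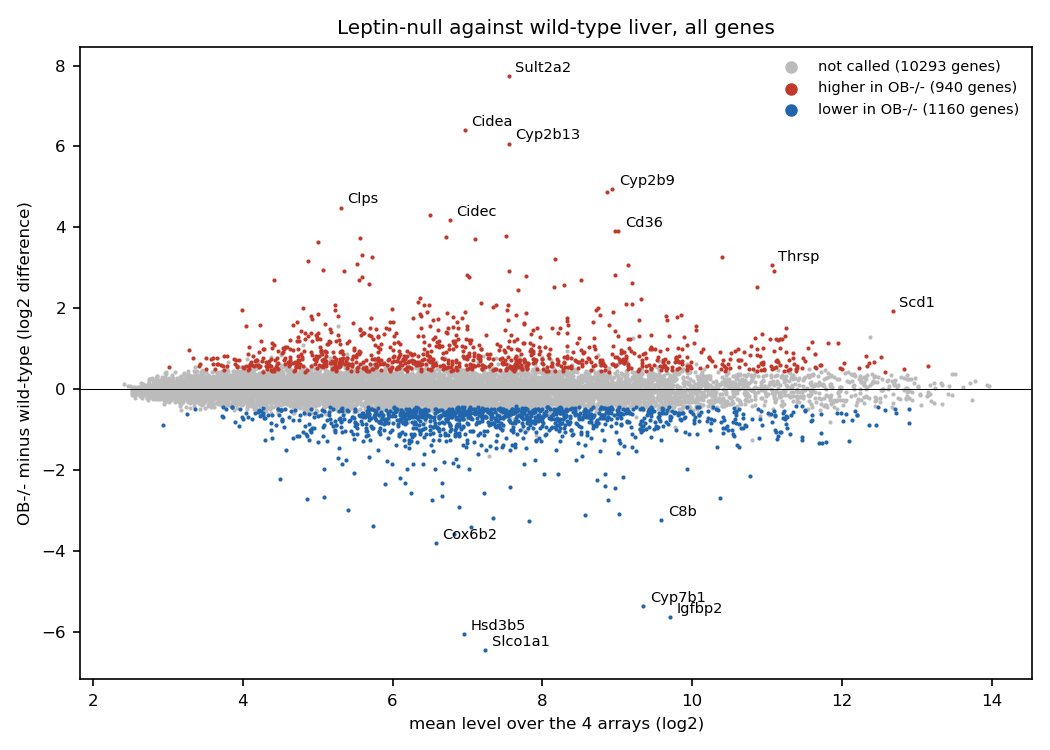
Each point is a gene, plotted by its mean level over the 4 arrays (log2, horizontal) and the OB-/- minus wild-type difference (log2, vertical); red and blue mark the 940 genes called higher and the 1160 called lower, grey the genes not called. The largest differences, at Sult2a2 (7.75) and Slco1a1 (-6.46), lie far outside the grey band.

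The largest rise was that of Sult2a2, a sulfotransferase of steroids and bile acids. It was 11.60 and 11.26 in OB-/- and 3.38 and 3.98 in wild-type, so that both OB-/- arrays were far above both wild-type arrays. The difference was 7.75 ± 0.25 (SE, n = 2 per group), or 216-fold (adjusted p = 1.05e-08). Cidea, a protein of lipid droplets that is typical of brown fat, was 10.07 and 10.27 against 3.73 and 3.82, a rise of 6.40 ± 0.20 (84.5-fold, adjusted p = 1.05e-08). The groups were again far apart, and the arrays of each agreed closely. Lgals1, the galactose-binding lectin galectin-1, was 11.17 and 11.42 against 6.34 and 6.52 (4.87 ± 0.28, adjusted p = 1.13e-06), and its other probe set gave 5.08. Ly6d, a membrane protein of the Ly6 family, was 9.38 and 9.42 against 5.26 and 5.98 (3.78 ± 0.25, adjusted p = 2.81e-06). Slc22a29, of the organic anion transporter family, was 6.76 and 6.90 against 3.06 and 3.30 (3.65 ± 0.26, adjusted p = 5.10e-06). The other genes among the 15 largest rises belong to groups described next: Cyp2b13, Cyp2b9, Clps, Sult1e1, Cidec, Cd36, Pltp, Mogat1, Prss2 and Zg16.

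The largest fall was that of Slco1a1, an uptake transporter for bile acids, steroids and thyroid hormones. It was 4.10 and 3.92 in OB-/- and 10.49 and 10.44 in wild-type, a difference of -6.46 ± 0.18 (87.8-fold lower, adjusted p = 8.06e-09), and its other probe set gave -4.50. Hsd3b5, a steroid dehydrogenase, was 3.79 and 4.06 against 10.21 and 9.75 (-6.05 ± 0.18, adjusted p = 8.06e-09). Igfbp2, which binds insulin-like growth factors, was 6.86 and 6.92 against 12.69 and 12.38 (-5.64 ± 0.19, 49.9-fold lower, adjusted p = 1.44e-08). Both OB-/- arrays were far below both wild-type arrays at all 3 genes, but the largest rises and falls were chosen among genes without overlap. Cyp7b1, an oxysterol hydroxylase, was 6.51 and 6.81 against 12.28 and 11.79 (-5.37 ± 0.18, adjusted p = 1.44e-08), with -5.03 at its other probe set. Cox6b2, a subunit of cytochrome oxidase best known from testis, differed by -3.80 ± 0.35 (adjusted p = 4.78e-05). Lifr, the receptor of leukaemia inhibitory factor, was 7.12 and 6.91 against 10.19 and 10.07 (-3.12 ± 0.16, adjusted p = 5.41e-07), while its other probe sets gave only -0.73 to -0.26. The vasopressin receptor gene Avpr1a differed by -2.98 ± 0.33 (adjusted p = 1.50e-04). Meg3, a long noncoding RNA expressed from the maternal copy of an imprinted cluster, was 6.05 and 6.32 against 9.47 and 9.41 (-3.25 ± 0.14, adjusted p = 1.08e-07), with other probe sets from -2.95 to -0.48. Rian, a noncoding RNA of the same cluster named after its values were seen, was 4.41 and 5.04 against 6.94 and 7.19 (-2.34 ± 0.26, adjusted p = 1.50e-04), with other probe sets from -0.91 to -0.21, and Dlk1, its paternally expressed protein-coding gene, was 4.04 and 4.05 against 4.14 and 4.02 (adjusted p = 0.904).

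Some large falls were not shared by all probe sets. Ctse, the protease cathepsin E, was 5.45 and 6.03 against 9.03 and 8.83 (-3.19 ± 0.44, adjusted p = 7.14e-04), but its other probe set gave 1.82. Scara5, a ferritin receptor, differed by -3.38 ± 0.38 (adjusted p = 1.67e-04) against 0.04 at its other probe set. Asic5, an ion channel (-3.59), the phosphodiesterase-like gene Gdpd3 (-3.40) and the hydrolase gene Abhd1 (-2.91) also fell, each measured by a single probe set. Of 951 called genes with several probe sets, all probe sets had the same sign at 676 (71.1%) and all others had the opposite sign at 130 (13.7%). Over all 4956 genes with several probe sets these shares were 51.7% and 27.7%.

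**Figure D2:**
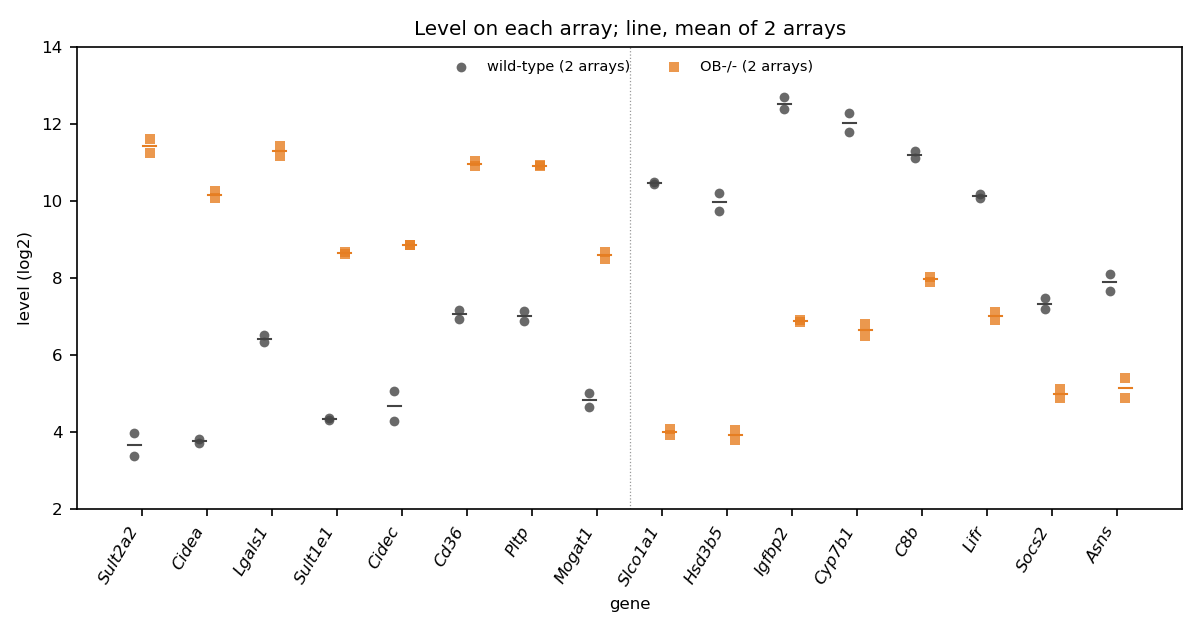
Level (log2, vertical) of 16 genes (horizontal) on each of the 4 arrays, with grey circles for wild-type, orange squares for OB-/- and a line at the mean of 2 arrays. The genes shown were picked from the called genes, none of which overlap between OB-/- and wild-type, and 57.5% of all genes do not overlap either. Examples are Cd36 (10.92 and 11.03 in OB-/- against 7.18 and 6.94 in wild-type) and Asns (4.90 and 5.40 against 8.11 and 7.67).

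Lep itself was near the low end of the table on every array, at 3.53 and 3.39 in OB-/- and 3.29 and 3.29 in wild-type (adjusted p = 0.499), so liver levels do not check the knockout. The leptin receptor gene Lepr was 5.43 and 5.52 in OB-/- and 5.82 and 6.37 in wild-type (-0.62 ± 0.18, adjusted p = 0.0363), with other probe sets from -1.26 to -0.05. Nr0b2 (SHP) was 8.01 and 8.01 in OB-/- and 8.74 and 8.71 in wild-type (-0.72 ± 0.19, adjusted p = 0.0258). Both were lower in OB-/- without overlap, but neither call was stable: Nr0b2 lost it whichever of the 4 arrays was left out (adjusted p up to 0.134), and Lepr without either OB-/- array or wild-type replicate 2 (up to 0.263).

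Several genes of cytokine and growth hormone signalling fell in leptin-null liver. Of 11 measured genes of leptin signalling, 6 fell and 0 rose (median -0.62), and of 18 genes of the growth hormone and insulin-like growth factor axis 8 fell and 1 rose (median -0.47). Socs2, an inhibitor of growth hormone signalling that growth hormone itself induces, was 4.89 and 5.12 in OB-/- and 7.19 and 7.48 in wild-type (-2.33 ± 0.24, adjusted p = 1.06e-04). Its other probe set gave -2.23. Socs3, the inhibitor induced by leptin and interleukin signals, was 6.17 and 6.11 against 7.01 and 7.76 (-1.25 ± 0.22, adjusted p = 0.00286), with other probe sets from -1.32 to -0.56. Cish, of the same family, differed by -1.13 ± 0.25 (adjusted p = 0.0105), and the transcription factor gene Stat3 by -0.83 ± 0.16 (adjusted p = 0.00469), with other probe sets of Stat3 from -0.95 to 0.12. The epidermal growth factor receptor gene Egfr differed by -2.45 ± 0.18 (adjusted p = 8.73e-06), with other probe sets from -4.51 to 0.41. The repressor gene Bcl6 (-1.41) and the hepatic transcription factor gene Onecut1 (-1.26) fell as well, with -0.47 and -0.51 at their other probe sets. The single rise was that of the carrier gene Igfbp3 (1.08 ± 0.18, adjusted p = 0.00209). Igf1 was 11.33 and 11.58 against 12.06 and 11.87 and did not pass (-0.51, adjusted p = 0.0567), and neither did the growth hormone receptor gene Ghr (-0.16, adjusted p = 0.592). Cish lost its call without OB-/- replicate 1 or wild-type replicate 2 (adjusted p up to 0.105), and Stat3 without OB-/- replicate 2 (adjusted p = 0.0554). The leptin list had 4 falls without either OB-/- array or wild-type replicate 2.

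Most male-biased liver genes fell and most female-biased ones rose. Of 16 measured male-biased genes 13 fell and 0 rose (median -1.22), and of 20 measured female-biased genes 12 rose and 0 fell (median 1.60). Beside Slco1a1, Hsd3b5, Cyp7b1 and Egfr, the male-biased complement gene C6 fell (-3.08 ± 0.23, adjusted p = 9.72e-06). Elovl3 (-0.52) and Cyp2d9 (-0.81), both male-biased, did not pass (adjusted p = 0.421 and 0.0681). Among female-biased genes, the oestrogen sulfotransferase Sult1e1 was 8.62 and 8.68 in OB-/- and 4.38 and 4.31 in wild-type (4.30 ± 0.47, adjusted p = 1.52e-04). Hao2, a hydroxyacid oxidase, was 7.02 and 6.94 against 4.07 and 4.33 (2.78 ± 0.18, adjusted p = 2.36e-06). Both OB-/- arrays were above both wild-type arrays at each of these genes, as at every gene called higher. The female-biased P450 gene Cyp4a14 was 12.93 and 12.82 against 12.82 and 12.90 and did not pass (adjusted p = 0.957). Without OB-/- replicate 1, the array with high Xist, 11 male-biased genes fell and 11 female-biased genes rose, and 0 moved the other way. In OB-/- replicate 2 itself Sult2a2 was 11.26 and Sult1e1 8.68, both above either wild-type array. Beyond these values the part of the Xist signal was not tested.

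Cyp2b13 and Cyp2b9, neighbouring female-biased cytochrome P450 genes, rose most among the P450 genes. Cyp2b13 was 10.61 and 10.56 in OB-/- and 4.47 and 4.56 in wild-type (6.07 ± 1.23, adjusted p = 0.00658). Cyp2b9 was 11.44 and 11.37 against 5.84 and 7.08 (4.95 ± 1.40, adjusted p = 0.0324). The spread behind these SEs was estimated over all 8 arrays. Arrays of 1 genotype can differ widely at these genes. The OB-/-/SHP-/- arrays were 4.55 and 10.31 for Cyp2b13 and 4.34 and 10.74 for Cyp2b9. OB-/- and wild-type arrays did not overlap at either gene, as at 57.5% of all genes. Cyp2b9 lost its call whichever of the 4 arrays was left out (adjusted p up to 0.209), and Cyp2b13 without OB-/- replicate 2 or either wild-type array (up to 0.0608). Probe sets of such close copies can share signal, which was not tested. The 250 bases before each gene start (RefSeq, GRCm38.p6) are printed beside those of Slco1a1, the gene that fell most. They show how alike the copies are upstream. Because these bases lie before the gene, they do not show whether its probe sets share signal. Capitals mark the nuclear receptor motif AGGTCA on either strand, which reads TGACCT on the other.
Cyp2b9, chr7:26173159-26173408, plus strand: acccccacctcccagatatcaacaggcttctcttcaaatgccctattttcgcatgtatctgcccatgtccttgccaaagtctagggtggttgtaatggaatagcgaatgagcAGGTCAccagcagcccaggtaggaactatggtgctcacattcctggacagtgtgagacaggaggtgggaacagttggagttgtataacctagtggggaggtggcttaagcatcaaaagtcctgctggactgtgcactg
Cyp2b13, chr7:26061245-26061494, plus strand: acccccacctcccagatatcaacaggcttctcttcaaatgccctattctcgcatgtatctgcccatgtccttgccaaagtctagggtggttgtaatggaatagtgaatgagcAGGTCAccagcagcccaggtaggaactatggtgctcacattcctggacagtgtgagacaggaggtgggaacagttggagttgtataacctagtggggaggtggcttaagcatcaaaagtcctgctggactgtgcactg
Slco1a1, chr6:141946963-141947212, minus strand: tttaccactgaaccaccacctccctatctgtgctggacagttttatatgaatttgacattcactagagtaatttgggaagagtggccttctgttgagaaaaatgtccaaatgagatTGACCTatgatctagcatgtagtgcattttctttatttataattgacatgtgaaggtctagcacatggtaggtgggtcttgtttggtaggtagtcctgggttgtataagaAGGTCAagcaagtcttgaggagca
The Cyp2b9 and Cyp2b13 stretches were identical at 248 of 250 bases (99.2%), with the motif at the same place, 138 to 133 bases before the start. Slco1a1 held 2 matches. AGGTCA was found in 14% of all 32851 promoters in the table, in 13.7% of those of genes higher in OB-/- and in 11.1% of those of genes lower. The STAT motif TTCNNNGAA, searched because growth hormone acts through STAT proteins, was in none of the 3 printed here. It was in 7.02% of all promoters, 5.44% of those of higher genes and 6.24% of those of lower genes. In the same order, the E-box CACGTG was in 6.02%, 5.75% and 8.13%, and the TATA box TATAAA in 12.4%, 8.62% and 6.82%. All promoters were not limited to measured genes, and the differences in these shares were not tested.

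Several genes of lipid storage and fat uptake rose. Of 15 measured lipid droplet proteins 7 rose and 0 fell (median 0.50). Cidec, which fuses lipid droplets, was 8.85 and 8.85 in OB-/- and 4.29 and 5.08 in wild-type (4.17 ± 0.34, adjusted p = 1.83e-05). Plin4, a perilipin coat protein, was 9.26 and 9.10 against 6.28 and 6.50 (2.79 ± 0.17, adjusted p = 1.78e-06). Fitm1, which helps droplets form, was 10.50 and 10.52 against 7.94 and 7.85 (2.62 ± 0.15, adjusted p = 1.15e-06). These genes showed no overlap, like all called genes. The main hepatic perilipin gene Plin2 was 12.93 and 12.72 against 12.25 and 12.72 and did not pass (adjusted p = 0.299). Cideb, the family member of normal liver, was 11.07 and 11.05 against 10.92 and 11.03 (adjusted p = 0.748). Of 13 genes of fatty acid uptake and binding 6 rose and 0 fell (median 0.73). Cd36, a fatty acid translocase, was 10.92 and 11.03 against 7.18 and 6.94 (3.91 ± 0.14, 15-fold, adjusted p = 1.64e-08), and its other probe sets gave 4.06 to 4.39. Fabp4, the fatty acid binding protein of fat cells and macrophages, rose by 1.88 ± 0.16 (adjusted p = 2.68e-05), with other probe sets from -0.01 to 1.47, whereas Fabp1, that of hepatocytes, was 13.42 and 13.38 against 13.29 and 13.19 (adjusted p = 0.473). Pparg, the nuclear receptor of fat cell formation, was 7.84 and 7.98 against 6.77 and 6.39 (1.33 ± 0.18, adjusted p = 5.44e-04).

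Several enzymes of fatty acid synthesis and of the supply of NADPH rose. Of 19 measured genes of fatty acid synthesis 10 rose and 1 fell (median 0.73), and of 12 genes of fructose use, the pentose phosphate pathway and NADPH 6 rose and 0 fell (median 0.45). Malic enzyme (Me1), which makes NADPH, was 12.07 and 12.19 in OB-/- and 9.64 and 9.57 in wild-type (2.52 ± 0.15, adjusted p = 1.15e-06). Thrsp, a nuclear protein that promotes lipid synthesis, was 12.48 and 12.71 against 9.57 and 9.48 (3.07 ± 0.50, adjusted p = 0.00198). Fatty acid synthase (Fasn), named after its values were seen, was 9.75 and 9.62 against 8.04 and 7.66 (1.84 ± 0.27, adjusted p = 0.00112). The desaturase gene Scd1 rose by 1.94 ± 0.19 (adjusted p = 6.08e-05) at its brightest probe set, which reached 13.61 and 13.69, and by 6.58 at its other one. The elongase gene Elovl6 (1.77), the acetyl-CoA synthetase gene Acss2 (1.84) and the carboxylase gene Acacb (1.37) rose, and the 1 fall was that of Mlxipl, which encodes the carbohydrate-sensing factor ChREBP (-0.89 ± 0.18, adjusted p = 0.00597). Srebf1, the sterol regulatory factor of this pathway, was 9.23 and 9.63 against 8.97 and 8.57 and did not pass (0.66, adjusted p = 0.141). Ketohexokinase (Khk, 1.21 ± 0.13), the first enzyme of fructose use, and transaldolase (Taldo1, 1.32 ± 0.14) rose (adjusted p = 1.54e-04 and 1.39e-04). With any 1 of the 4 arrays left out, 9 to 10 genes of fatty acid synthesis and 5 to 6 of the NADPH list rose. The fall of Mlxipl was not called without OB-/- replicate 1 or wild-type replicate 1.

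In triglyceride synthesis 4 of 12 genes rose and 0 fell (median 0.14), a count of 2 to 3 with 1 of the 4 arrays left out. Mogat1, which acylates monoglycerides, was 8.68 and 8.50 in OB-/- and 4.66 and 5.01 in wild-type (3.76 ± 0.25, adjusted p = 2.85e-06). Gpd1, which makes glycerol phosphate, rose by 1.31 ± 0.18 (adjusted p = 7.37e-04), with other probe sets from 0.01 to 2.68, while Dgat2, the last enzyme of the main pathway, was 12.23 and 12.24 against 11.93 and 11.77 and did not pass (adjusted p = 0.0835). Of 17 genes of peroxisomal and omega oxidation 7 rose and 1 fell (median 0.35), and 4 to 6 rose with 1 of the 4 arrays left out. They included Pex11a, which divides peroxisomes (1.25 ± 0.13, adjusted p = 1.32e-04), and the peroxisomal transporter gene Abcd2, which was 7.58 and 7.15 against 3.97 and 4.22 (3.27 ± 0.43, adjusted p = 5.16e-04). In mitochondrial fatty acid oxidation 5 of 22 genes rose and 1 fell (median 0.11), and 1 to 3 rose with 1 of the 4 arrays left out. The coactivator gene Ppargc1a was 6.40 and 6.35 against 7.68 and 7.56 (-1.25 ± 0.15, adjusted p = 3.27e-04), the single fall of that list, with other probe sets from -0.86 to -0.18. Of 4 genes of ketone body metabolism, 0 passed at an adjusted p below 0.05 by limma, and 2 had an unadjusted p below it.

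**Figure D3:**
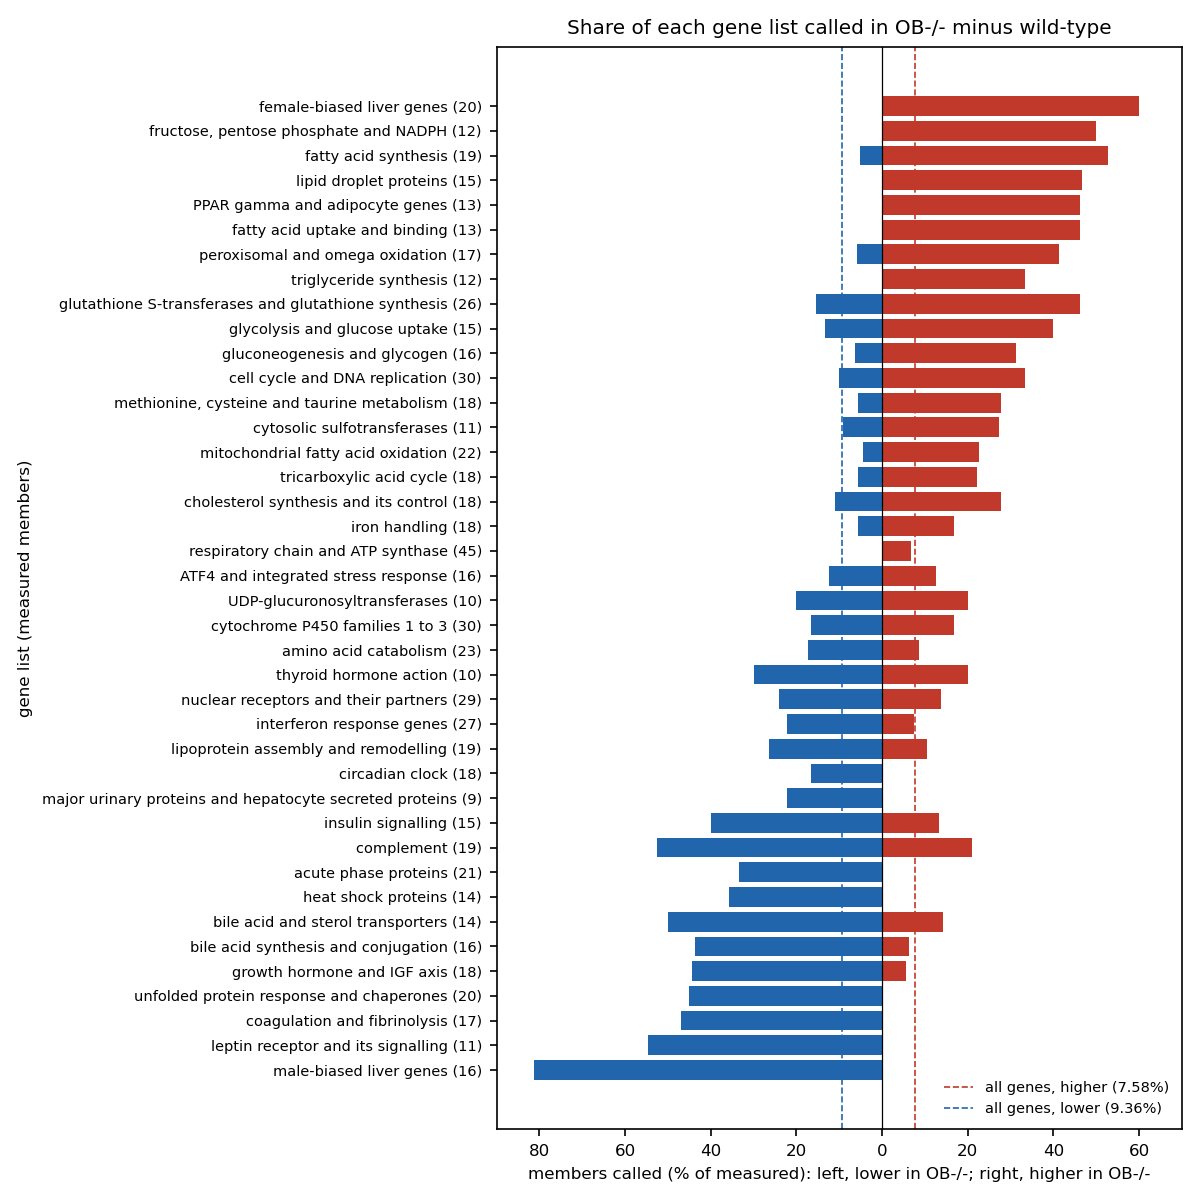
Share of the measured members of each pathway list (number in parentheses) called lower (blue, to the left) or higher (red, to the right) in OB-/-, in percent; dashed lines mark the shares over all genes, 7.58% higher and 9.36% lower. Female-biased genes (12 of 20 higher) and male-biased genes (13 of 16 lower) lie at the ends. The lists were chosen with earlier results of these data known.

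At their brightest probe sets, lipoprotein and bile acid genes had more falls than rises, but with the mean of probe sets 4 lipoprotein genes rose and 4 fell. Pltp, which transfers phospholipids between lipoproteins, was 10.94 and 10.90 in OB-/- and 7.14 and 6.90 in wild-type (3.90 ± 0.15, adjusted p = 3.94e-08), but 5 of 19 lipoprotein genes fell and 2 rose, with a list median of -0.08 and 1 rise without wild-type replicate 2. Among these were Apom, an apolipoprotein of HDL (-1.38 ± 0.13, adjusted p = 5.38e-05), and the HDL receptor gene Scarb1 (-0.96 ± 0.16, adjusted p = 0.00238). The main apolipoprotein genes Apoa1, Apoa2 and Apoe did not pass (-0.26, 0.08 and 0.14). Of 16 genes of bile acid synthesis 7 fell and 1 rose (median -0.17), and 3 to 4 fell with 1 of the 4 arrays left out. Cyp7b1 had the largest fall. Cyp2c70, which hydroxylates bile acids to the mouse-specific muricholic acids, differed by -1.07 ± 0.15 (adjusted p = 7.80e-04), and Akr1d1, a steroid reductase, rose by 1.79 ± 0.17 (adjusted p = 5.40e-05). Hnf4a, a master regulator of hepatocyte genes, differed by -0.76 ± 0.14 (adjusted p = 0.00338) at its brightest probe set, while others ranged from -0.20 to 1.24, and the sign turned without the x_at and s_at probe sets (0.28). Of 14 transporters 7 fell and 2 rose (median -0.48), and 4 to 7 fell and 1 to 2 rose with 1 of the 4 arrays left out. The half-transporters that export cholesterol into bile fell, Abcg8 by 1.32 ± 0.19 and Abcg5 by 1.00 ± 0.17 (adjusted p = 9.06e-04 and 0.00223). The main bile acid uptake transporter gene Slc10a1 was 12.25 and 12.40 against 12.02 and 11.92 and did not pass (adjusted p = 0.109). Of 18 genes of cholesterol synthesis 5 rose and 2 fell (median 0.06), led by Nsdhl (1.58 ± 0.19, adjusted p = 2.95e-04) and Fdps (1.35 ± 0.18, adjusted p = 4.90e-04), whose other probe set gave 0. With 1 of the 4 arrays left out 2 to 3 rose and 0 to 1 fell, 0 falling without OB-/- replicate 1 or wild-type replicate 1.

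Of 15 genes of glycolysis 6 rose and 2 fell (median 0.17), and 3 to 5 rose and 0 to 2 fell with 1 of the 4 arrays left out, 0 falling without OB-/- replicate 2 or wild-type replicate 1. Pyruvate kinase (Pklr) was 9.50 and 9.97 in OB-/- against 7.79 and 7.69 in wild-type (2.00 ± 0.21, adjusted p = 1.06e-04). Of 16 genes of gluconeogenesis and glycogen 5 rose and 1 fell (median 0.09). The glycogen branching enzyme gene Gbe1 rose by 1.47 ± 0.15 (adjusted p = 1.00e-04), while the gluconeogenic gene Pck1 was 11.90 and 11.75 against 12.29 and 12.14 and did not pass (-0.39, adjusted p = 0.0883). In insulin signalling 6 of 15 genes fell and 2 rose (median -0.30). Both insulin receptor substrates were lower, Irs2 at 5.80 and 5.79 against 7.60 and 7.58 (-1.79 ± 0.19, adjusted p = 1.46e-04) and Irs1 at 7.46 and 7.22 against 8.79 and 8.45 (-1.28 ± 0.17, adjusted p = 5.29e-04). Their arrays did not overlap, and both calls were kept with any single array left out. The fall of Akt2, a kinase downstream of the insulin receptor (-0.55, adjusted p = 0.0271), was lost without either OB-/- array or wild-type replicate 1 (adjusted p up to 0.195), and its other probe set gave 0.47. With 1 of the 4 arrays left out, 3 to 6 genes of this list fell and 0 rose.

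Several genes of glutathione conjugation rose. Of 26 measured glutathione genes 12 rose and 4 fell (median 0.49), and 11 rose with any 1 of the 4 arrays left out. Gstm3 was 11.97 and 12.10 in OB-/- and 8.95 and 8.58 in wild-type (3.27 ± 0.17, adjusted p = 4.80e-07), and Gstt3 was 10.39 and 10.35 against 7.54 and 7.59 (2.81 ± 0.13, adjusted p = 1.50e-07). The membrane-bound Mgst3 rose by 2.53 ± 0.16, against 0.37 at its other probe set, and the quinone reductase gene Nqo1 by 1.72 ± 0.16. Falls were those of Gstp1 (-0.84), Gstt2 (-0.65) and both subunits of glutamate-cysteine ligase, the rate-limiting enzyme of glutathione synthesis, Gclc (-0.45, and 0.17 at its other probe set) and Gclm (-0.52). These 4 were named after their values were seen, and the list had 1 to 2 falls with 1 of the 4 arrays left out. Transferases of this family resemble each other, so their probe sets can share signal. Of 30 cytochrome P450 genes of families 1 to 3, 5 rose and 5 fell (median 0.10), and 2 to 3 rose with 1 of the 4 arrays left out. Cyp2c23, an arachidonate epoxygenase, differed by -2.16 ± 0.17 (adjusted p = 1.63e-05) and Cyp1a2 by -1.24 ± 0.16 (adjusted p = 3.74e-04), whereas the abundant drug-metabolising genes Cyp3a11 and Cyp2e1 did not pass (0.14 and -0.11). Of 11 sulfotransferases, Sult2a2, Sult3a1 and Sult1e1 rose and Sult5a1 fell (-2.20 ± 0.18, adjusted p = 1.86e-05), while Sult1a1 was 11.67 and 11.64 against 11.65 and 11.84 (adjusted p = 0.728).

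Of 20 genes of the unfolded protein response and its chaperones 9 fell and 0 rose (median -0.48), and of 14 heat shock genes 5 fell and 0 rose (median -0.43). Hspa5 (BiP), the main chaperone of the endoplasmic reticulum, was 10.93 and 10.90 in OB-/- and 11.56 and 11.61 in wild-type (-0.67 ± 0.14, adjusted p = 0.00722). Creld2, a secreted target of that response, was 6.66 and 6.60 against 7.75 and 7.66 (-1.08 ± 0.13, adjusted p = 2.87e-04). The groups did not overlap at either gene, but the Hspa5 call was lost without OB-/- replicate 2 or wild-type replicate 2 (adjusted p up to 0.0521). The count of 9 was 3 to 6 with 1 of the 4 arrays left out, 3 without wild-type replicate 1. Hsph1, a cytosolic heat shock protein, was 5.86 and 6.01 against 8.62 and 8.41 (-2.58 ± 0.15, adjusted p = 1.15e-06), and Hspa1b, an inducible Hsp70, differed by -2.56 ± 0.26 (adjusted p = 8.46e-05). Heat shock genes had 4 to 5 falls with 1 of the 4 arrays left out. Asparagine synthetase (Asns), a target of the stress factor ATF4, was 4.90 and 5.40 against 8.11 and 7.67 (-2.75 ± 0.38, adjusted p = 7.11e-04), but of 16 genes of the ATF4 response 2 rose and 2 fell (median 0.08), with 1 rise when any 1 of the 4 arrays was left out and 1 fall without either OB-/- array.

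Many secreted plasma proteins fell, while the chains of the complement component C1q rose. Of 19 measured complement genes 10 fell and 4 rose (median -0.56), and of these 14 calls 12 were kept with any single array left out. Terminal components fell: C8b was 8.04 and 7.90 in OB-/- and 11.31 and 11.11 in wild-type (-3.24 ± 0.14, adjusted p = 1.30e-07), and C8a, another chain of C8, differed by a like amount (-2.69 ± 0.13, adjusted p = 3.22e-07). Hc, which encodes complement C5, differed by -1.26 ± 0.13 (adjusted p = 1.06e-04), while C8g, the third chain of C8, was 12.31 and 12.16 against 12.28 and 12.20 (adjusted p = 0.994). The rises were those of C1qa (1.84), C1qb (2.13) and C1qc (1.64), the chains of C1q, and of properdin (Cfp, 1.32), which were named after their values were seen. C1q is made mainly by macrophages, whose markers rose too, but a link between these rises was not tested. Coagulation genes had 8 falls and 0 rises among 17 (median -0.40), led by F11 (-1.38 ± 0.16, adjusted p = 2.01e-04) and F7 (-1.18 ± 0.15, adjusted p = 3.42e-04), with 4 to 8 falls when 1 of the 4 arrays was left out. Acute phase proteins had 7 falls and 0 rises among 21 (median -0.30), and 3 to 4 falls with 1 of the 4 arrays left out. Saa3, an inducible serum amyloid, differed by -1.98 ± 0.31 (adjusted p = 0.00145), while haptoglobin (Hp) was 13.38 and 13.41 against 13.53 and 13.56 (adjusted p = 0.547). Hamp2, a hepcidin-like gene, was 12.78 and 12.32 against 9.69 and 9.59 (2.91 ± 0.18, adjusted p = 1.52e-06), but its other probe set gave 0.11.

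Some markers of cells other than hepatocytes rose in OB-/-. In whole liver, fewer or more cells of a type and less or more RNA per cell cannot be told apart. Of 18 measured Kupffer cell and macrophage markers 11 rose and 0 fell (median 0.99), and 7 to 8 rose with 1 of the 4 arrays left out. Their summed level was 11.98 and 11.98 in OB-/- and 10.65 and 10.68 in wild-type. Vsig4, a complement receptor of Kupffer cells, was 8.69 and 8.76 against 6.86 and 6.82 (1.88 ± 0.20, adjusted p = 1.44e-04). Cd5l, a secreted macrophage protein, was 9.93 and 9.86 against 7.91 and 8.08 (1.91 ± 0.31, adjusted p = 0.00200), and Csf1r, the receptor for macrophage growth factor, was 9.66 and 9.71 against 8.24 and 8.26 (1.44 ± 0.20, adjusted p = 6.61e-04). Both OB-/- arrays exceeded both wild-type arrays at all 3, as at every gene called higher. Trem2 (-0.40) and Marco (0.30) were among the 7 members of this list that did not pass (adjusted p = 0.0768 and 0.638). Of 8 markers of MHC class II and dendritic cells 3 rose, a count of 0 to 1 with 1 of the 4 arrays left out. T, B and NK cell markers (14 measured) and neutrophil markers (8 measured) had 0 calls by limma, with 1 and 0 at an unadjusted p below 0.05.

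Of 24 genes of stellate cells and matrix 10 rose and 0 fell (median 0.40), with 7 to 8 rises when 1 of the 4 arrays was left out. The collagen genes Col4a1 (1.52 ± 0.13, adjusted p = 3.09e-05), Col3a1 (1.49 ± 0.21, adjusted p = 7.42e-04, and 0.36 at its other probe set) and Col1a2 (1.16 ± 0.17, adjusted p = 9.70e-04) rose, with Vim (1.23), an intermediate filament of mesenchymal cells. Acta2, the actin of activated stellate cells, was 4.99 and 5.05 in OB-/- and 5.11 and 5.40 in wild-type, and Des, the stellate cell filament desmin, was 5.73 and 5.74 against 5.73 and 5.75, so these defining markers did not pass. The summed level of the list was 11.77 and 11.76 against 11.26 and 11.24. Of 15 endothelial markers 5 rose and 0 fell (median 0.24), and 2 to 4 rose with 1 of the 4 arrays left out, with 1 fall without OB-/- replicate 1. Lyve1, a hyaluronan receptor of sinusoidal cells, was 7.43 and 7.07 against 3.94 and 3.94 (3.31 ± 0.28, adjusted p = 2.49e-05), while Stab2, another sinusoidal receptor, was 7.69 and 7.43 against 7.95 and 7.24 (adjusted p = 0.936). Of 30 cell cycle genes 10 rose and 3 fell (median 0.22), and 6 to 8 rose with 1 of the 4 arrays left out. Cdk1, the kinase of mitotic entry, was 5.96 and 5.90 against 4.11 and 4.03 (1.86 ± 0.16, adjusted p = 3.09e-05), with Ccnb2, its cyclin partner, at 1.81 ± 0.16 (adjusted p = 2.83e-05) and the replication clamp Pcna at 8.94 and 9.03 against 9.07 and 8.90 (adjusted p = 0.994).

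Several genes of the exocrine pancreas rose in OB-/-. Of 19 measured pancreas markers 10 rose and 1 fell (median 0.74), and 7 to 9 rose with 1 of the 4 arrays left out, when 0 fell except without OB-/- replicate 1. Among markers with a mean level over all 8 arrays of at least 4.83, only 3 rose and 1 fell. Clps, the cofactor of pancreatic lipase, was 7.95 and 7.15 in OB-/- and 2.90 and 3.23 in wild-type (4.49 ± 0.22, adjusted p = 3.28e-07). The trypsinogen gene Prss2 was 7.87 and 7.00 against 3.76 and 3.65 (3.73 ± 0.23, adjusted p = 1.78e-06), and Zg16, a lectin of zymogen granules, was 8.96 and 8.95 against 5.26 and 5.21 (3.72 ± 0.16, adjusted p = 1.00e-07). Clps and Prss2 were higher in OB-/- replicate 1 than in replicate 2, and no wild-type array approached either. Other probe sets differed: Clps had 0.61, Prss2 0.19 to 1.86 and Zg16 -0.51 to 0.94, and Zg16 turned to -0.51 without the x_at and s_at probe sets. The islet hormones Ins2 (adjusted p = 0.659) and Gcg (3.34 and 3.21 against 2.96 and 3.30) did not pass. The summed level of the pancreas markers was 10.91 and 10.60 against 9.56 and 9.54, and its part in the other results was not tested. Of 8 white fat markers 3 rose, among them Fabp4, but Adipoq, a defining fat cell gene, was near the low end of the table on all 4 arrays, at 3.07 and 2.89 against 2.93 and 2.79.

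**Figure D4:**
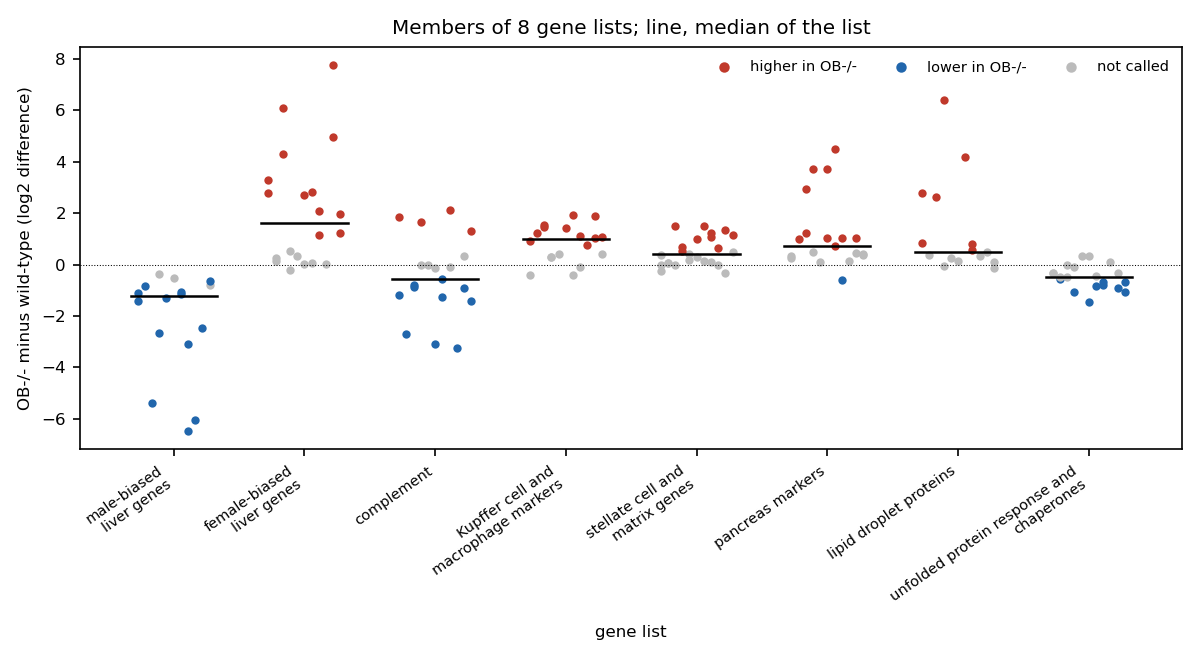
OB-/- minus wild-type difference (log2, vertical) of each measured member of 8 gene lists (horizontal), with red for members called higher, blue for members called lower, grey for members not called and a line at the median. The medians run from -1.22 for male-biased genes to 1.60 for female-biased genes, and complement holds calls in both directions.

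Of 45 genes of the respiratory chain and ATP synthase 3 rose and 0 fell (6.67%, median 0.17), below the 16.9% of all genes, and none of the 3 calls, of Ndufs4, Ndufb8 and Cycs, was kept without wild-type replicate 1 (adjusted p up to 0.191). Of 18 genes of the tricarboxylic acid cycle 4 rose and 1 fell (median 0.24), led by Suclg2 (1.09 ± 0.14, adjusted p = 4.86e-04), with 2 to 4 rises when 1 of the 4 arrays was left out and 0 falls except without wild-type replicate 2. Amino acid catabolism had 2 rises and 4 falls among 23 genes (median -0.17), and 0 to 1 rises and 2 to 3 falls with 1 of the 4 arrays left out. The share called was 27.8% for the tricarboxylic acid cycle and 26.1% for amino acid catabolism, against 16.9% of all genes, and these differences were not tested. The aminotransferase gene Got1 was 11.15 and 10.99 in OB-/- and 12.43 and 12.37 in wild-type (-1.33 ± 0.14, adjusted p = 1.30e-04). The urea cycle had 3 falls among 7, none kept without wild-type replicate 1, and Cps1, its first enzyme, differed by -0.51 ± 0.14 (adjusted p = 0.0250, up to 0.187 with 1 array left out). In methionine metabolism 5 of 18 genes rose and 1 fell (median 0.08), with 1 to 5 rises when 1 of the 4 arrays was left out, the fall being that of Cbs, which makes cystathionine (-1.09 ± 0.15, adjusted p = 5.68e-04). Of 18 clock genes 3 fell and 0 rose (median -0.32), at 16.7% near the share of all genes, with 2 falls, or 1 without wild-type replicate 1, when 1 of the 4 arrays was left out. Noct, a rhythmic phosphatase known as nocturnin, was 7.15 and 6.78 against 9.25 and 8.88 (-2.10 ± 0.26, adjusted p = 3.27e-04). Of 29 nuclear receptors and partners 4 rose and 7 fell (median -0.17), with 1 to 3 falls when 1 of the 4 arrays was left out. The bile acid receptor gene Nr1h4 was 9.40 and 9.45 against 9.28 and 9.08 and did not pass (adjusted p = 0.410). Immediate-early genes, of which 12 were measured, had 0 calls by limma, while 5 reached an unadjusted p below 0.05.

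The surroundings of the knocked-out gene and the Y-linked genes were also examined. Of the 25 protein-coding genes on each side of Lep in the RefSeq order, 33 were measured. Of these 8 were called (24.2%, against 16.9% of all genes), 7 lower and 1 higher. Over all genes 9.36% were lower and 7.58% higher, and the difference in shares was not tested. Among the 8 were Tspan33 (-1.60 ± 0.13, adjusted p = 1.43e-05) and Cadps2 (-1.27 ± 0.20, adjusted p = 0.00136). The Y-linked demethylase gene Kdm5d was 4.37 and 4.21 in OB-/- and 5.35 and 5.46 in wild-type (-1.12 ± 0.14, adjusted p = 3.40e-04), while its other probe sets gave -0.02 to 0.02. The Y-linked gene Uty was 4.55 and 5.14 against 4.96 and 4.91 (adjusted p = 0.800).

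The same comparison without SHP, OB-/-/SHP-/- minus SHP-/-, shares no array with this one. Both used the spread of each gene over all 8 arrays, however, so their calls are not independent. The 3' excess also differed more between the groups with SHP present, and its part in the counts was not tested. Without SHP 1311 genes were called (10.6%), 614 higher (4.95%) and 697 lower (5.62%), or 615 in all with only the 4 arrays compared. Of the 940 genes higher with SHP present, 360 (38.3%) were also higher without SHP, which is 58.6% of that list, and of the 1160 lower genes 481 (41.5%) were also lower, which is 69.0% of that list. Only 2 genes went from higher to lower and 10 from lower to higher. Of the 2100 called genes 94.8% had the same sign without SHP, against 72.3% of all genes. Sult2a2 (7.91), Slco1a1 (-6.25), Igfbp2 (-5.00) and Cd36 (4.35) changed there by similar amounts. The difference between both leptin comparisons, tested as an interaction, was called at 68 genes (0.549%), 44 with a more positive value without SHP (0.355%) and 24 with a more negative one (0.194%). With 1 of the 8 arrays left out that count ranged from 32 (without wild-type replicate 2) to 113 (without SHP-/- replicate 2), with 38 without wild-type replicate 1 and 39 without either OB-/- array.

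Genes that rose more with SHP present were led by Cidea, which rose by 6.40 with SHP and by 2.23 without it (interaction -4.17, adjusted p = 4.63e-05). Adi1, an enzyme of methionine salvage, was next, at 1.46 with SHP and -1.90 without it (interaction -3.36). Among pancreas markers Clps rose by 4.49 with SHP and by 1.36 without it, and Reg3b, an antimicrobial lectin of pancreas and gut, was 6.33 and 6.75 in OB-/- against 3.60 and 3.58 in wild-type (2.95 ± 0.16, adjusted p = 8.05e-07) and differed by 0.11 without SHP, but its other probe set gave 0.19 with SHP present. Of 19 pancreas markers 5 had a called interaction. Col4a1 rose by 1.52 with SHP and differed by 0.01 without it (interaction -1.51, adjusted p = 0.00258). Irs2 fell by 1.79 with SHP and differed by -0.13 without it (interaction 1.66, adjusted p = 0.0202). Interferon-inducible GTPases stood on the other side, since 16 of 27 interferon response genes had a called interaction and 2 rose and 6 fell with SHP present (median -0.11), a count of 0 to 1 and 1 to 3 with 1 of the 4 arrays left out. Gbp2, a guanylate-binding protein of antimicrobial defence, was 4.86 and 5.02 in OB-/- and 4.60 and 4.63 in wild-type (0.32, adjusted p = 0.253), and rose by 5.42 without SHP (adjusted p = 1.08e-08). Iigp1, of the same defence system, was 10.18 and 10.19 against 11.15 and 11.11 (-0.95 ± 0.13, adjusted p = 5.92e-04) and rose by 1.37 without SHP.

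**Figure D5:**
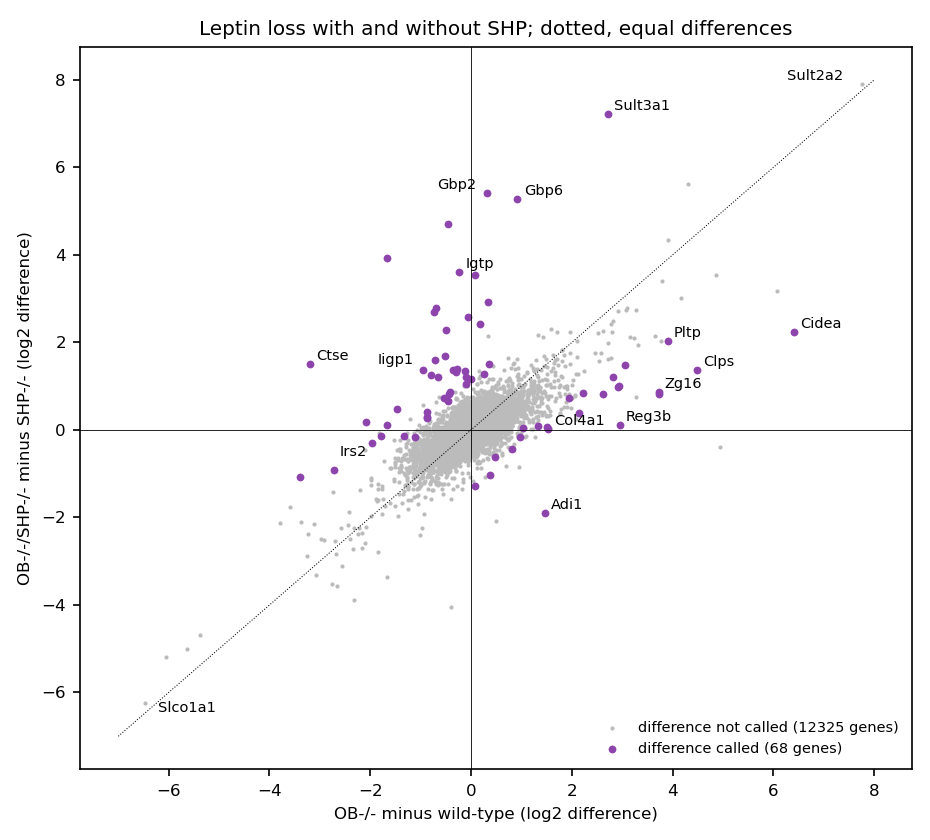
Each point is a gene, with the OB-/- minus wild-type difference on the horizontal axis and the OB-/-/SHP-/- minus SHP-/- difference on the vertical axis (both log2); purple marks the 68 genes with a called interaction, and the dotted line marks equal differences. Sult2a2 and Slco1a1 lie near the line, Cidea and Clps below it, and Gbp2 and Sult3a1 above it.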

How the data were processed

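Liver RNA of 8 arrays, 2 per genotype, was measured on Affymetrix mouse arrays. The authors deposited log2 values per probe set for the whole series. The log base was read from the range of the values (2.20 to 14.19). R 2.15.0 is named per the submitters' processing notes, while the method of background correction and summarisation was not stated in the labels or headers. Of 22690 probe sets, 64 controls were left out. Of the remaining 22626, 20380 named 1 gene, 691 several and 1555 none. Names were checked against the RefSeq table of GRCm38.p6, where 20351 matched and 0 symbols changed. Each gene was read from its brightest probe set on average, which gave 12393 genes, and cross-hybridisation of close paralogs was not separable.

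Differences were fitted with limma 3.58.1 in R 4.3.3 (data.table version 1.17.8) over all 8 arrays with 1 mean per genotype. The spread had 4 residual and 7.16 prior degrees of freedom, and p-values were adjusted over all genes by Benjamini-Hochberg with a threshold of 0.05. The number of arrays limits the precision. Scripts were checked on simulated data. The 56 gene lists held 1043 entries, of which 902 were measured. The members and lists were chosen with earlier results of these data known. Genes were named by rule (Lep, Lepr, Nr0b2 and the sex chromosome list; the 15 largest called rises and falls without overlap, and the 10 largest called interactions in each direction, restricted to genes whose higher group mean was at or above the overall median and whose symbol was no clone name; per list, up to 5 called members by adjusted p and up to 3 uncalled ones by level). Others (Acta2, Adipoq, C1qa, C1qb, C1qc, Cadps2, Cfp, Des, Dlk1, Fasn, Gcg, Gclc, Gclm, Gstp1, Gstt2, Igfbp3, Mlxipl, Rian, Srebf1, Stab2 and Tspan33) were named after their values were seen. Alternatives changed the normalisation, the filter on dim genes, the variance model, the choice of probe sets, the minimum change, the arrays fitted, the replicate block and each array in turn.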

Additional observations from a re-analysis of the deposited data

Results flagged for a closer look

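With 2 arrays per group, no array was tested as an outlier within its group. The leptin comparison differed between the SHP-present and SHP-absent backgrounds at 68 genes by the interaction test of limma (adjusted p below 0.05), and those of them named here follow with the SHP-absent minus the SHP-present log2 difference.

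Interferon-inducible genes had a more positive leptin difference without SHP. The value was 5.15 for Gbp2b, 5.10 for Gbp2, 3.47 for Gbp3, 4.35 for Gbp6 and 3.48 for Gbp7. It was 3.84 for Igtp, 3.44 for Ifi47, 2.77 for Irgm2, 2.32 for Iigp1, 2.05 for Ifit1 and 2.25 for the immunoproteasome gene Psmb9. Other genes with a more positive value were Ctse (4.69), Sult3a1 (4.51), Gdpd3 (2.33), Irs2 (1.66), the immunoglobulin gene Ighm (1.32) and Got1 (1.19).

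Genes of the pancreas had a more negative value, with Clps at -3.13, Prss2 at -2.90, Zg16 at -2.86, Reg3b at -2.84 and the lipase-related gene Pnliprp1 at -0.99. So did Cidea (-4.17), Adi1 (-3.36), Mme (-1.93), Wfdc2 (-1.91), Pltp (-1.87), Cbr3 (-1.78), Cyp2b10 (-1.60), and the collagen genes Col4a1 (-1.51) and Col4a2 (-1.24).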

How the results depend on the processing

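The count of 2100 genes called between OB-/- and wild-type was 3592 (1840 higher, 1752 lower) over every probe set and 102 (57 higher, 45 lower) against a minimum change of 2-fold. With 1 array left out it ranged from 956 to 2234 in all, from 433 to 1004 for genes higher and from 425 to 1230 for genes lower. Under the other settings it lay between 1985 and 2545. With equal medians 848 genes were higher and 1359 lower, and with the mean of all probe sets 993 and 992. Without SHP the count of 1311 was 63 against 2-fold and 615 with only the 4 arrays compared, and from 600 to 1307 with 1 array left out. The count of 68 interactions was 120 over every probe set and 22 against 2-fold, and from 32 to 113 with 1 array left out. Only 4 values of named genes reversed: Hnf4a became 0.14 with the mean of probe sets and 0.28 without x_at and s_at probe sets, where Akt2 became 0.47 and Zg16 -0.51; each of these settings uses other probe sets. The labels do not say that replicate numbers pair arrays, and same-numbered OB-/- and wild-type arrays deviated together at r = 0.196. With the number as a replicate block 2147, 1359 and 77 genes were called.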
